A study of Rattus norvegicus with 8 samples.

Results

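The genes described here are 10 negative regulators of the mitogen-activated protein kinase (MAPK) cascades in the rat Achilles tendon. They were taken by symbol, as 7 dual-specificity phosphatases (Dusp1, Dusp2, Dusp4, Dusp5, Dusp6, Dusp8 and Dusp10) and 3 members of the Sprouty and Spred families (Spry2, Spry4 and Spred1), and make up 10 of the 15590 genes in the expression table. All 10 were expressed above the filter on low values and were tested. Polyadenylated RNA came from whole right Achilles tendons of wild-type (WT) male Sprague-Dawley rats, 8 to 10 weeks old. The 4 libraries of the 0 h p.r. (post-run) group came from rats killed straight after 1 h of uphill treadmill running, and the 4 NC libraries from naïve cage controls that did not run. Airflow and, for rats that left the belt, a mild electric stimulus prompted the running, so these go with the running group and cannot be told apart from it. The labels have the control rats killed without delay, whereas the study's running design has cage controls killed together with a later post-run group. Which holds for these controls is unclear and no hour is given, so time of day and running cannot be told apart. The labels number the replicates without saying that each was a different rat, so p-values measure the spread between these libraries.

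MAPK cascades carry signals from growth factor receptors, stretch and stress to the nucleus through the kinases ERK, JNK and p38, each switched on by phosphorylation of a threonine and a tyrosine. Dual-specificity phosphatases (DUSPs) remove both phosphates, and several of their genes are themselves immediate targets of the cascades, which closes a feedback loop. Sprouty and Spred proteins act further upstream, between receptor and Ras or Raf. In tendon, the resident fibroblasts (tenocytes) are known to activate MAPKs when the tissue is stretched.

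The promoters of 4 genes are shown first because they belong to the DUSP genes that rose after running, and because each holds a match to a known inducible element. The windows are from RefSeq on the rat build GRCr8 and run from 250 bases before to 50 bases after the annotated gene start, so they take in the upstream flank and the first bases of exon 1. Of the 10 genes, 9 matched an entry by symbol, with 2 windows for Spry2, while Dusp4 was not listed. Both strands were searched for 6 motifs, and capitals mark the matches to the CArG box (bound by serum response factor), the cyclic AMP response element (CRE, TGACGTCA) and the EGR element (GCGGGGGCG). The Dusp5 window, chr1:262543524-262543823 on the plus strand, holds 2 adjoining CArG boxes at 82 to 73 and 72 to 63 bases before the start.
Dusp5: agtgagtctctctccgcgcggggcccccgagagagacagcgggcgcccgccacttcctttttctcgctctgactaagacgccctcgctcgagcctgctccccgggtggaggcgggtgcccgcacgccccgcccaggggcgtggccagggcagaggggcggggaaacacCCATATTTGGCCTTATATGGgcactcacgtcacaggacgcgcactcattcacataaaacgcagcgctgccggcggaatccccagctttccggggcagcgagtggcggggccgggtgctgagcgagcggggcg
Dusp1, chr10:17184603-17184902 on the plus strand, holds a full CRE at 124 to 117 bases before the start.
Dusp1: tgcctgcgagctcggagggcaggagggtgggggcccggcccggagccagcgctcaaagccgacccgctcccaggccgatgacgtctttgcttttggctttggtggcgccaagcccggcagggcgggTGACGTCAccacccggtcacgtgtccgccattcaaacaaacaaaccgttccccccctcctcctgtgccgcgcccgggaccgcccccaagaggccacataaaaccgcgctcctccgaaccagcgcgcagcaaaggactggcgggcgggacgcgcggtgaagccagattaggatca
Dusp2, chr3:135009386-135009685 on the plus strand, holds an EGR element at 112 to 104 bases before the start.
Dusp2: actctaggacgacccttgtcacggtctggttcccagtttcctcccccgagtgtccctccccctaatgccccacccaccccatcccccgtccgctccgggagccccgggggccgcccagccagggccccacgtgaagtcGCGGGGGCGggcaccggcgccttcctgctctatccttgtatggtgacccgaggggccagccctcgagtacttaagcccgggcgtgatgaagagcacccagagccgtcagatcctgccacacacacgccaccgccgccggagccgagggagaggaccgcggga
Dusp8, chr1:206612392-206612691 on the minus strand and printed in the gene's direction, holds an EGR element read on the opposite strand at 22 to 14 bases before the start.
Dusp8: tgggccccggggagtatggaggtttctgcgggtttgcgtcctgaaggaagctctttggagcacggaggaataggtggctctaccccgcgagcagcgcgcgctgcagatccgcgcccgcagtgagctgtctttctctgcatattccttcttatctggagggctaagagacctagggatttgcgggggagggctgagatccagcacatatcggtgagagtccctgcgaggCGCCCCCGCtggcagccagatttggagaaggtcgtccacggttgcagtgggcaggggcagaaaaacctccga
Among all 33469 promoter windows of the same length, 1.64% held a CArG box and 0.0209%, or 7 windows, held 2 or more. A full CRE was in 1.83% and an EGR element in 2.73%. The 5-letter CRE core TGACG, which the full CRE contains, was far more common at 21.2% and occurred in the windows of Dusp1, Dusp2, Dusp5 and 1 window of Spry2. Neither an AP-1 site (TGANTCA, in 7.33% of windows) nor a heat shock element (in 0.798%) was found in these windows. The windows of Dusp6, Dusp10, Spry4 and Spred1 held none of the 6 motifs. A match describes the letters of the window and not the binding of a factor.

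**Figure D1:**
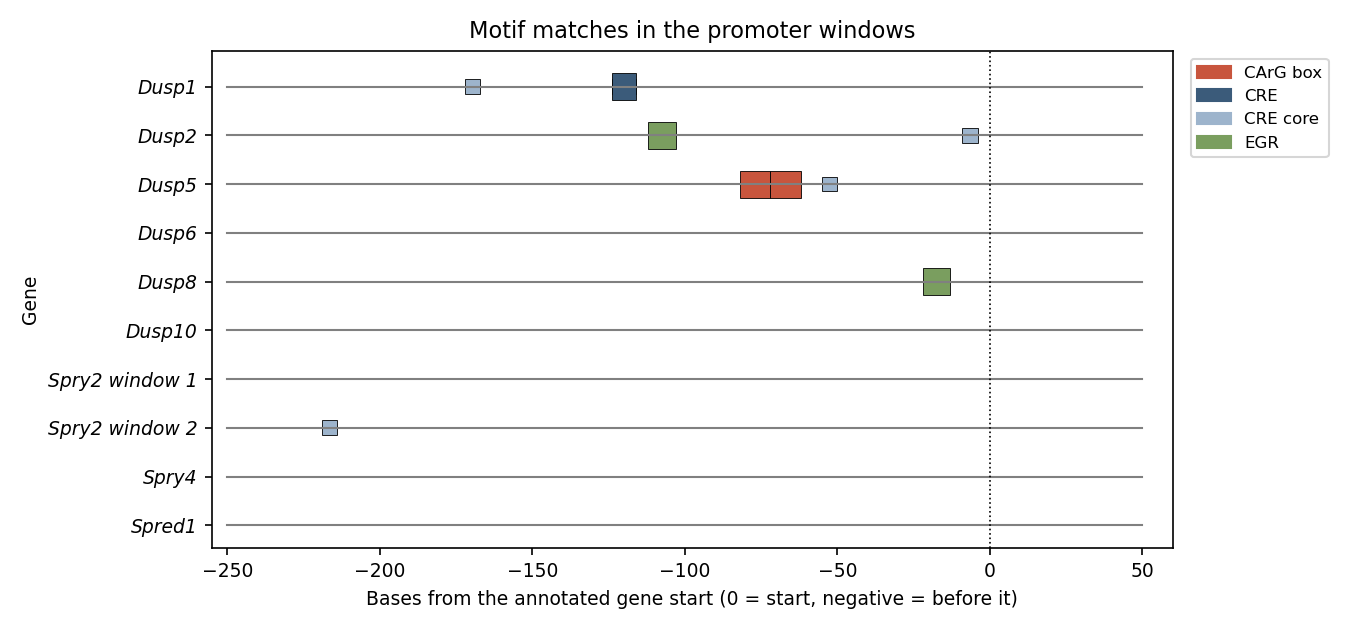
Motif matches in the 10 promoter windows of 9 genes, by distance in bases from the annotated gene start (0, dotted line). Boxes mark matches to the CArG box, the CRE, the CRE core outside a full CRE and the EGR element, and the 2 CArG boxes of Dusp5 adjoin at 82 to 63 bases before the start.

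Running was followed by higher levels of 4 of the 10 genes, all of them phosphatases: Dusp1, Dusp2, Dusp5 and Dusp8. The remaining 6, the ERK phosphatase Dusp6 and all 3 Sprouty and Spred genes among them, did not pass the test, and none of the 10 was lower past it. The count of 4 was 2 without NC replicate 1, without 0 h p.r. replicate 2 or with an equal FPKM sum per library. Levels are FPKM (fragments per kilobase of gene, with a scaling between libraries by the authors), and groups were compared with limma on log2(FPKM + 0.5), with p-values adjusted by Benjamini-Hochberg over all 13863 genes in the test. To pass, a gene needed an adjusted p under 0.05 and a fold of at least 2, which 2.70% of all tested genes reached, 1.80% higher and 0.894% lower. The adjusted p alone, which 5.72% of the genes passed, 3.49% higher and 2.23% lower, called the same count of 4 of 10. The groups did not overlap, with every post-run library above every control library, for 5 of the 10 genes. Over all tested genes 15.6% did not overlap, 8.15% higher and 7.47% lower. The median log2 fold change was 0.39 over the 10 genes and -0.00 over all genes. In whole tendon, a change in the share of a cell type and a change in RNA per cell cannot be told apart.

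**Figure D2:**
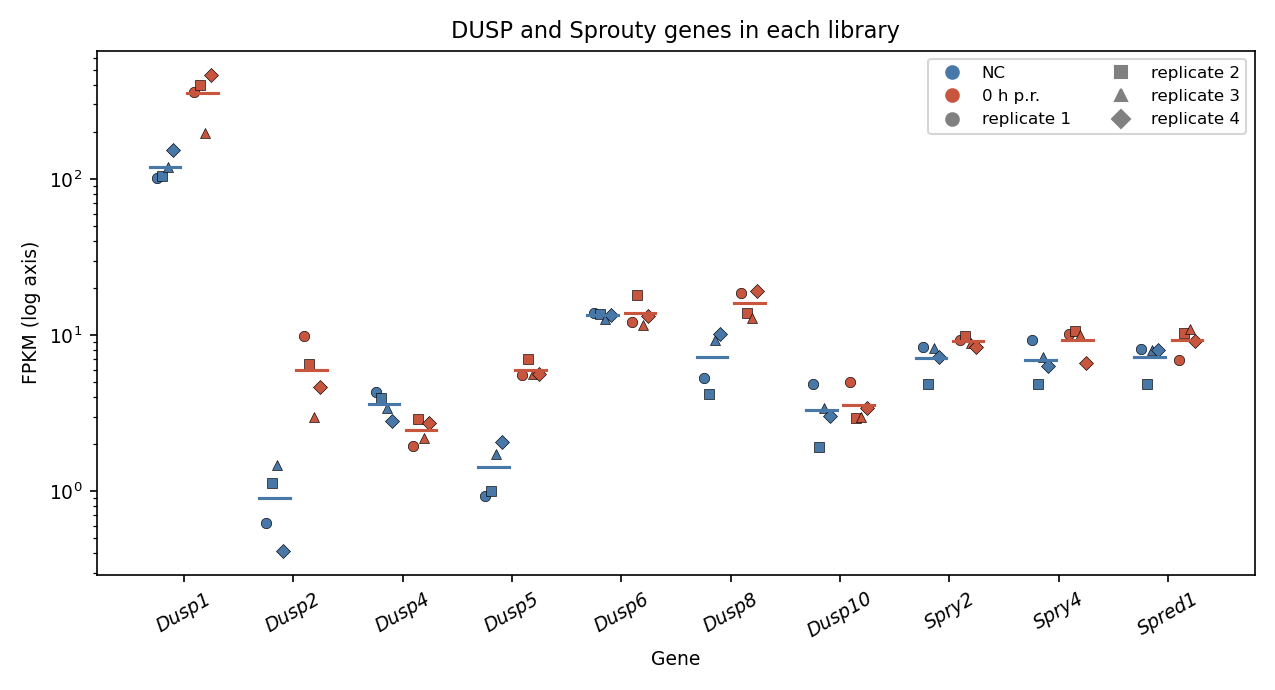
FPKM of the 10 genes in each library on a log axis, with NC in blue, 0 h p.r. in red, a marker shape for each replicate number and a line at each group mean. The groups do not overlap for Dusp1, Dusp2, Dusp5, Dusp8 and Spry2.

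Dusp1 encodes a nuclear phosphatase of p38, JNK and ERK and is a classic immediate-early gene. It stood at 101, 104, 119 and 153 FPKM in the 4 NC libraries and at 358, 399, 197 and 467 FPKM in the 4 post-run libraries. Every post-run library lay above every control, although replicate 3 rose far less than the other 3. The mean went from 119 ± 24.0 to 355 ± 114 FPKM (SD, n = 4 each). The log2 fold change was 1.52 (SE 0.27, 95% interval 0.92 to 2.13), a fold of 2.88, with an adjusted p of 0.0156 in limma. The call rested on single libraries: the adjusted p was 0.0562 when NC replicate 1 was dropped, 0.0597 when 0 h p.r. replicate 2 was dropped, and 0.0548 with all libraries scaled to the same FPKM sum. The direction and a log2 fold change between 1.37 and 1.78 held in all 20 alternatives. The summed level of 7 bone and cartilage markers was 43.7, 15.3, 81.0 and 130 FPKM in NC and 193, 335, 129 and 502 FPKM after running, in the same order of libraries as Dusp1 within the post-run group. The part of these cells in the Dusp1 result was not tested.

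Dusp2 and Dusp5 were the least abundant of the 10 at rest and showed the highest fold changes. Dusp2, a nuclear phosphatase of ERK and p38 best known from activated lymphocytes, was at 0.624, 1.12, 1.47 and 0.414 FPKM in NC. After running it reached 9.82, 6.52, 2.98 and 4.67 FPKM, so that the lowest post-run library was above the highest control. These values rest on few reads, 10 to 35 per control library and 62 to 212 per post-run library. For the lowest of them, 10 reads, the exact 95% Poisson interval was 0.199 to 0.761 FPKM, for counting error only. The log2 fold change was 2.16 (SE 0.36, 95% interval 1.35 to 2.97), with an adjusted p of 0.0122. It ranged from 1.81 to 2.77 over the alternatives, and the call held in all 8 fits that left out 1 library. Of 6 T lymphocyte markers, only Cd4 and Ptprc had a row, while Cd3e, Cd3d, Cd3g and Cd8a had none. Cd4 and Ptprc summed to 14.9 to 27.9 FPKM in NC and 13.2 to 27.6 FPKM after running. Without the other markers this sum cannot stand for the level of T lymphocytes, and their part in the Dusp2 result was not tested.

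Dusp5 encodes a nuclear phosphatase that acts on ERK and also holds it in the nucleus. The 4 controls were at 0.930, 1.00, 1.72 and 2.06 FPKM, on 24 to 74 reads each. Post-run libraries were at 5.57, 6.97, 5.64 and 5.58 FPKM, on 175 to 306 reads. The post-run values were close together apart from a higher replicate 2, and their coefficient of variation was 11.6% against 38.6% in NC. With a mean of 1.43 ± 0.55 FPKM at rest and 5.94 ± 0.688 FPKM after running (SD, n = 4 each), Dusp5 had a log2 fold change of 1.78 (SE 0.21), a fold of 3.43 with a 95% interval of 2.47 to 4.78. Its adjusted p of 0.00315 in limma was the lowest of the 10, and it stayed between 0.00338 and 0.0163 when any 1 library was left out. It was also the only one of the 10 to pass a test against a fold of 1.5 (adjusted p 0.0383).

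Dusp4 encodes the closest nuclear relative of Dusp1 and acts on ERK and JNK. It did not move with the other nuclear phosphatases, at 4.30, 3.96, 3.41 and 2.81 FPKM in NC and 1.95, 2.91, 2.20 and 2.74 FPKM after running. The ranges overlapped, since post-run replicate 2 lay above NC replicate 4. Its log2 fold change was -0.48 (SE 0.17, 95% interval -0.87 to -0.09), and the adjusted p over all genes was 0.141, short of the threshold. The sign was the same in all 20 alternatives.

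Dusp6 encodes the cytoplasmic phosphatase of ERK, whose transcript is widely used as a readout of ERK activity. In NC it was nearly constant, at 13.8, 13.6, 12.7 and 13.5 FPKM, with a coefficient of variation of 3.64%. In 0 h p.r. it was at 12.1, 18.1, 11.6 and 13.2 FPKM, with replicate 2 above every control and the other 3 libraries within or below the control range. The log2 fold change was 0.02 (SE 0.15) with an adjusted p of 0.969, and its 95% interval of -0.32 to 0.35 bounds the change that these libraries leave possible. Within each library, the ratio of Dusp5 to Dusp6 FPKM was 0.0674 to 0.153 in NC and 0.385 to 0.488 after running, and the ratio of Dusp1 to Dusp6 was 7.30 to 11.4 and 17.1 to 35.3. The transcripts of these nuclear phosphatases stood higher against Dusp6 in every post-run library than in any control.

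Dusp8 and Dusp10 encode phosphatases that prefer JNK and p38 to ERK. Dusp8 was at 5.28, 4.17, 9.28 and 10.1 FPKM in NC and 18.5, 13.8, 12.8 and 19.3 FPKM after running. The groups did not overlap, but the controls were spread over a 2.43-fold range, with replicates 1 and 2 well under replicates 3 and 4. The log2 fold change was 1.17 (SE 0.28, 95% interval 0.54 to 1.79) with an adjusted p of 0.0445. This was just under the threshold and did not hold when single libraries were left out. Of the 8 such fits, only that without NC replicate 4 kept it, at 0.0393. The adjusted p was 0.124, 0.0689 and 0.0587 without NC replicates 1, 2 and 3, and 0.0989, 0.104, 0.0820 and 0.0649 without 0 h p.r. replicates 1 to 4. With an equal FPKM sum per library it was 0.184.

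Dusp10 was at 4.85, 1.90, 3.43 and 3.03 FPKM in NC and 4.98, 2.91, 3.001 and 3.38 FPKM after running. Replicate 1 was the highest library in both groups, and the ranges overlapped, with only NC replicate 2 below every post-run library. The log2 fold change was 0.13 (SE 0.26, 95% interval -0.45 to 0.71), with an adjusted p of 0.830. Dusp16, another JNK and p38 phosphatase named here after its values were seen, went from 4.26 ± 1.52 to 7.997 ± 1.33 FPKM (SD, n = 4 each). Its groups did not overlap, and its log2 fold change of 0.90 had an adjusted p of 0.0871 in limma.

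None of the 3 Sprouty and Spred genes among the 10 passed the test. Spry2, which blocks signalling from growth factor receptors to Ras, was at 8.33, 4.85, 8.24 and 7.20 FPKM in NC and 9.35, 9.87, 8.92 and 8.41 FPKM after running. The groups did not overlap, by the narrow margin between 8.33 and 8.41 FPKM. Its log2 fold change was 0.36 (SE 0.17, 95% interval -0.03 to 0.74), with an adjusted p of 0.259.

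Spry4, a relative with the same kind of action, was at 9.21, 4.88, 7.23 and 6.30 FPKM in NC and 10.1, 10.6, 9.92 and 6.65 FPKM after running. Post-run replicate 4 stayed among the controls while the other 3 lay above them all. A log2 fold change of 0.42 (SE 0.21, 95% interval -0.06 to 0.89) came with an adjusted p of 0.283. Spred1, which brings neurofibromin to the membrane to switch off Ras, was at 8.15, 4.88, 8.0 and 8.06 FPKM in NC and 6.95, 10.3, 10.98 and 9.11 FPKM after running. Post-run replicate 1 was below 3 of the 4 controls, and the log2 fold change of 0.35 (SE 0.20, 95% interval -0.10 to 0.80) had an adjusted p of 0.353. All 3 genes were lowest in NC replicate 2, the shallowest library. Without it, the log2 fold changes were 0.19 for Spry2, 0.27 for Spry4 and 0.18 for Spred1.

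**Figure D3:**
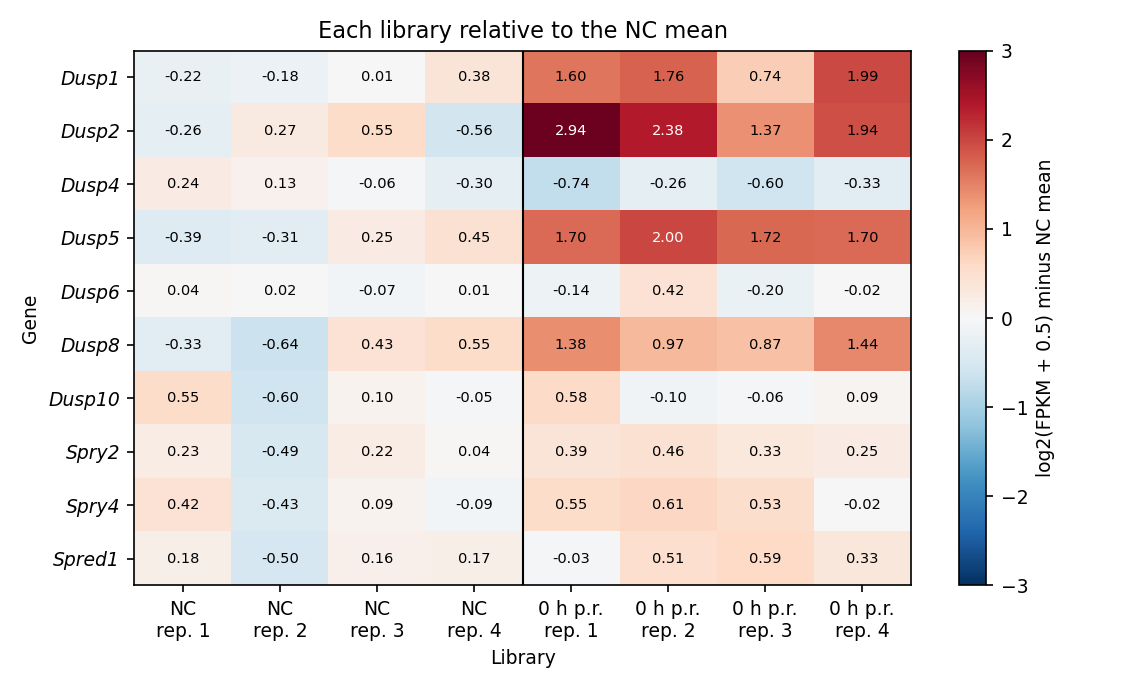
Difference of each library from the NC mean for the 10 genes, on log2(FPKM + 0.5), printed in each cell and coloured from blue (lower) to red (higher). The rows of Dusp1, Dusp2, Dusp5 and Dusp8 are above the control mean in all 4 post-run libraries by 0.74 or more, and NC replicate 2 is the lowest control for Dusp8, Dusp10, Spry2, Spry4 and Spred1.

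The rest of both families was read beside these genes, with 18 further DUSP-type phosphatases and 3 further Sprouty and Spred genes tested. The median log2 fold change of the 18 phosphatases was 0.02, and that of the 10 genes 0.39, a difference that was not tested. Past both thresholds there was 1, Dusp14, a small phosphatase without the MAPK-docking domain, at 2.35, 2.55, 2.44 and 3.21 FPKM in NC and 5.64, 8.78, 5.65 and 10.1 FPKM after running. Its log2 fold change was 1.32 (SE 0.21) with an adjusted p of 0.00957, and the call held without any 1 library but not with an equal FPKM sum per library (adjusted p 0.0693). Dusp19, named after its values were seen, was lower by the adjusted p alone, with a log2 fold change of -0.54 and an adjusted p of 0.0454, and lost this call without any 1 library, where the adjusted p ranged from 0.0557 to 0.135. Of the Sprouty and Spred relatives, none passed. Spry1, the most abundant of the 3 Sprouty genes with a row, was at 23.6 ± 1.41 FPKM in NC and 18.5 ± 3.95 FPKM after running (SD, n = 4 each), with a log2 fold change of -0.36 and an adjusted p of 0.194.

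**Figure D4:**
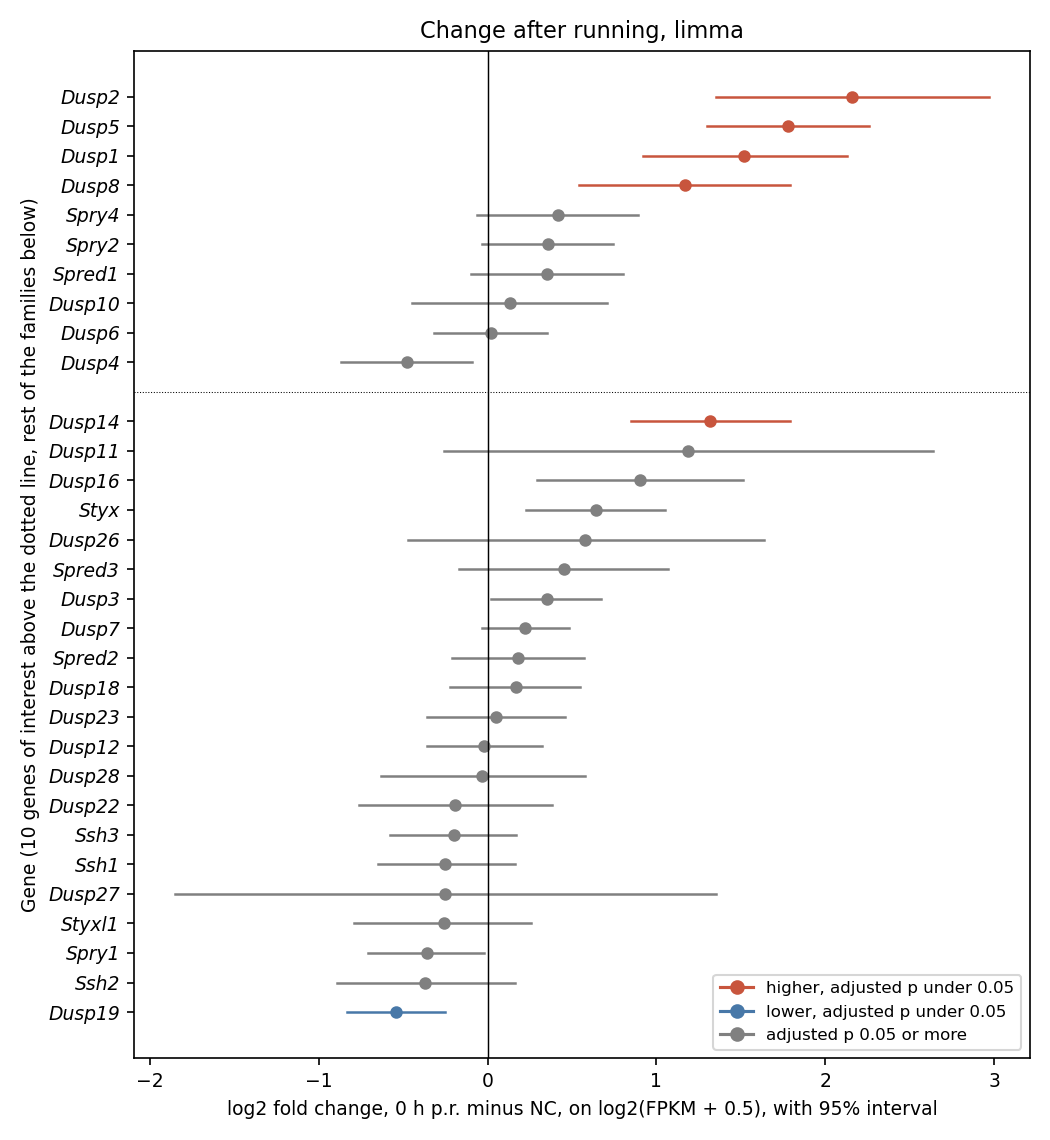
Log2 fold change of 0 h p.r. against NC with 95% intervals from limma, on log2(FPKM + 0.5), for the 10 genes (above the dotted line) and the other tested DUSP, Sprouty and Spred genes (below it). Red marks genes higher and blue genes lower at an adjusted p under 0.05, which are Dusp1, Dusp2, Dusp5, Dusp8 and Dusp14 against Dusp19.

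In level per length, Dusp1 was far above the other 9 genes in both groups. In NC the order continued with Dusp6 at 13.4 ± 0.488 FPKM, and these first 2 ranges did not overlap with each other or with the next gene. Spred1, Dusp8, Spry2 and Spry4 followed at means of 7.27, 7.22, 7.16 and 6.91 FPKM and could not be ordered within their spread. Spry4 stood above Dusp4 without overlap, while Dusp4, Dusp10, Dusp5 and Dusp2, from 3.62 down to 0.907 FPKM, each overlapped the next. After running, Dusp8 at 16.1 ± 3.26 FPKM and Dusp6 at 13.7 ± 3.01 FPKM shared second place with overlapping ranges. Spred1, Spry4, Spry2, Dusp2 and Dusp5 came next, each overlapping its neighbour, from 9.34 to 5.94 FPKM. Dusp10 at 3.57 and Dusp4 at 2.45 FPKM closed the order, each separated from the gene above it. For Dusp4 the margin was very narrow, 2.911 against 2.915 FPKM, both in 0 h p.r. replicate 2. Their 95% Poisson intervals there overlapped, at 2.53 to 3.33 FPKM for Dusp4 and 2.46 to 3.43 FPKM for Dusp10. By mean, Dusp5 and Dusp2 stood last at rest and Dusp4 after running.

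The summed FPKM of the 7 DUSP genes was 131, 130, 151 and 185 in NC and 411, 450, 235 and 515 in 0 h p.r. The means were 149 ± 26.0 and 403 ± 120 FPKM (SD, n = 4 each), and Dusp1 alone made up most of each sum. Its share was 79.7% ± 2.37 in NC and 87.5% ± 2.85 after running, higher in 4 of 4 post-run libraries than in any control. The difference of 7.81 percentage points had a two-sided exact permutation p of 0.0286, the smallest that the 70 assignments of 8 libraries can give. Over all 22 DUSP-named genes with a row, the Dusp1 share went from 45.5% to 64.3%, with the same p. Leaving out NC replicate 1, 2 or 3 or 0 h p.r. replicate 4 gave differences of 6.96, 7.95, 7.49 and 6.80 points, each with an exact p of 0.0571. The Dusp6 share went from 9.19% ± 1.62 to 3.61% ± 1.07 and the Dusp8 share from 4.73% ± 1.34 to 4.19% ± 1.03. These 2 differences in share were not tested.

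**Figure D5:**
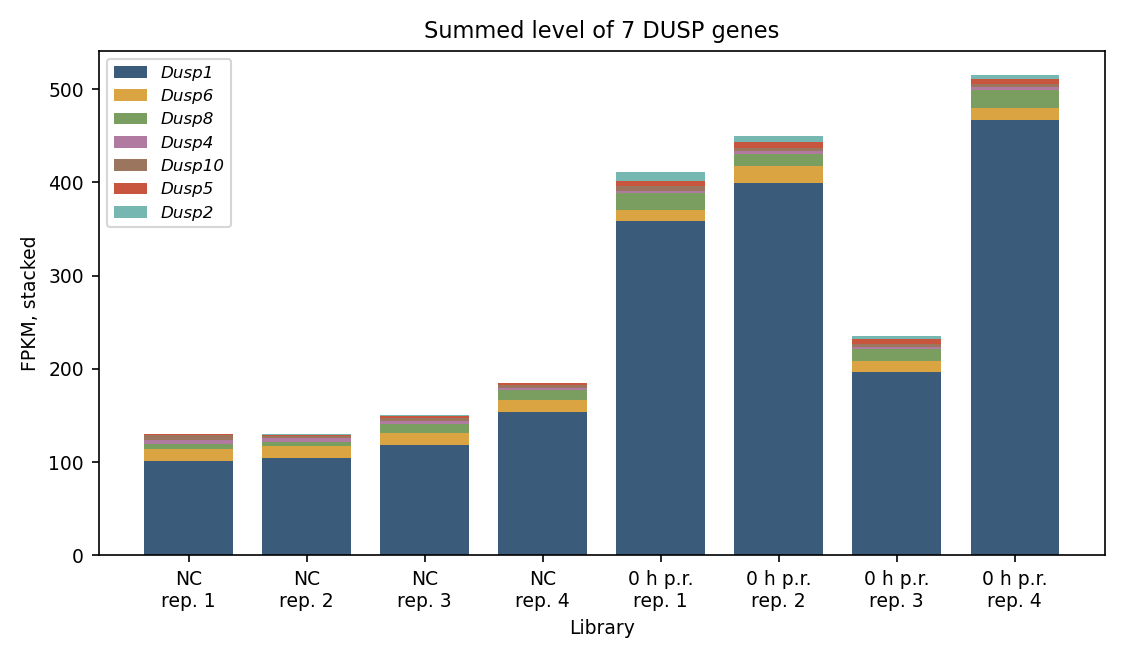
Summed FPKM of the 7 DUSP genes in each of the 8 libraries, as bars stacked by gene and starting at 0. Dusp1 fills most of every bar, and the post-run bars reach 411, 450, 235 and 515 FPKM against 130 to 185 FPKM in NC.

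The 10 genes did not share one order of libraries. NC replicate 2 was the lowest control for 5 of them, Dusp8, Dusp10, Spry2, Spry4 and Spred1. In 0 h p.r., replicate 2 was highest for 5 (Dusp4, Dusp5, Dusp6, Spry2 and Spry4) and replicate 3 lowest for 4 (Dusp1, Dusp2, Dusp6 and Dusp8). NC replicate 2 had the fewest recovered reads, 10660131 against up to 17464752, and 31.1% of its FPKM came from the 13 protein-coding genes of the mitochondrion against 16.3% to 21.9% elsewhere. The part of depth or mitochondrial RNA in these low values was not tested.

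For each gene, the 3 protein-coding genes with the most similar pattern over the 8 libraries were listed by Pearson's r of the log2 values, as a description. All points share the 8 libraries and the 2 groups, so genes that rise after running resemble each other by that alone. Dusp1 was most like Klf4 (r = 0.989) and Nr4a2 (0.981), which encode immediate-early transcription factors, and Col9a3 (0.986), a cartilage collagen. Dusp5 was most like the chemokine receptor gene Ackr3 (0.996), then Slc35e4 (0.995) and Impact (0.990). Ackr3 rose with a log2 fold change of 2.05 and an adjusted p of 0.00205 in limma. Dusp8 was most like Jund (0.981), a subunit of the AP-1 factor, with Slc35e1 (0.980) and Rnf103 (0.977), and Dusp2 like Adcy2 (0.976), Pelo (0.966) and Wbp1l (0.965). Dusp4 resembled Trhde (0.987), Cd300lg (0.980) and Psat1 (0.973). Of these, Cd300lg (log2 fold change -1.82, adjusted p 0.0407) and Psat1 (-1.18, 0.0368) fell. Spry2 was most like Wdr26 (0.991), Ppp1r15b (0.985) and Brd1 (0.979), Spry4 like Etv6 (0.944), Kpna6 (0.943) and Ints5 (0.943), and Spred1 like Myef2 (0.971), Slc41a2 (0.968) and Uhrf1bp1l (0.968). The closest patterns to Dusp10 were Hgs (0.957), Gga1 (0.941) and Hipk4 (0.934). Dusp6 had the loosest matches of the 10, Lsm6 (0.908), Aftph (0.884) and Slc25a40 (0.879).

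The pathway on which these phosphatases act was described from its ligands down to its target genes. Of 15 tested growth factors and receptors, 1 passed both thresholds. This was Hbegf, a ligand of the epidermal growth factor receptor, which went from 13.5 ± 8.89 to 69.5 ± 13.96 FPKM (SD, n = 4 each), with a log2 fold change of 2.51 (SE 0.39) and an adjusted p of 0.00928. Fgfr2, named after its values were seen, passed the adjusted p alone (0.62, adjusted p 0.0444), a call kept in 1 of 8 leave-one-out fits. None of 14 Ras, Raf and adaptor genes passed both thresholds. By the adjusted p alone the adaptor gene Gab1, named after its values were seen, was lower, with a log2 fold change of -0.58 and an adjusted p of 0.0395. It kept this in only 2 of 8 leave-one-out fits.

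Of the kinases, none of 7 MAPK genes passed, with Mapk9 (JNK2) at a log2 fold change of 0.27 and an adjusted p of 0.154. Of 7 MAPK kinase genes, Map2k3, an activator of p38, passed, at 11.2, 3.87, 8.64 and 6.14 FPKM in NC and 24.0, 22.4, 25.0 and 11.4 FPKM after running. Its log2 fold change of 1.44 had an adjusted p of 0.0426, kept in 2 of 8 leave-one-out fits. Among 12 other inhibitors of the pathway, Errfi1, which blocks the epidermal growth factor receptor, passed with a log2 fold change of 1.32 and an adjusted p of 0.0278, kept in 3 of those 8 fits.

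Of 14 genes known as transcriptional outputs of ERK, 7 passed, all higher, and the median log2 fold change was 0.70. They were the transcription factor genes Fos (2.68, SE 0.37), Egr1 (2.44, SE 0.31), Myc (1.87, SE 0.20), Fosl1 (1.67, SE 0.24) and Ets2 (1.48, SE 0.21), with Ier3 (1.86, SE 0.17) and Phlda1 (1.25, SE 0.28). Their adjusted p in limma lay between 0.000886 (Ier3) and 0.0361 (Phlda1). Only Phlda1 lost its call in fits without 1 library, in 5 of 8. Egr1 stood at 13.8, 8.10, 24.2 and 17.2 FPKM in NC and 80.7, 120, 66.9 and 68.8 FPKM after running. It encodes the factor whose element was matched in the Dusp2 and Dusp8 windows, and the part of this factor in their levels was not tested. The Etv genes, which like Dusp6 and the Sprouty genes are used as readouts of sustained ERK signalling, had log2 fold changes of -0.42 (Etv1), -0.07 (Etv4) and 0.16 (Etv5). None of these 3 passed the test, and they were named after their values were seen.

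The tissue label was checked against 8 tenocyte markers, all of which were expressed, with a summed level of 3777 to 7451 FPKM in NC and 4154 to 7450 FPKM after running. None of them passed the test, and Comp had the lowest adjusted p (log2 fold change 0.67, adjusted p 0.167). Other cell types differed between libraries. Of 6 adipocyte markers, 4 fell past both thresholds, and the summed level was 2378 to 4396 FPKM in NC and 780 to 1726 FPKM after running. The 4 were Adipoq, Lep, Cidec and Retn, with log2 fold changes of -1.69, -2.37, -2.41 and -2.14 and adjusted p of 0.0363, 0.0286, 0.0270 and 0.0117. Of the 8 leave-one-out fits, Adipoq and Lep kept this call in 2, Cidec in 4 and Retn in all 8. Skeletal muscle markers, 10 with a row, summed to 5298 to 9124 FPKM in NC. In the post-run libraries they summed to 40353, 6835, 18267 and 1218 FPKM. No member passed the test, and Tnni1 had the lowest adjusted p (log2 fold change -3.39, adjusted p 0.139). Tnni1 went against most of its list, where 7 of the 10 had positive log2 fold changes. The median of the list was 0.78 and its range -3.42 to 1.76. Dusp8 was at 19.3 FPKM in the post-run library with the least muscle RNA, replicate 4, and at 18.5 FPKM in that with the most, replicate 1. Dusp1 was highest in replicate 4 and Dusp2 in replicate 1. Of 6 tested bone and cartilage markers none passed (Dmp1, 1.79, adjusted p 0.0746). All 6 had positive log2 fold changes, with a median of 2.15 and a range of 1.79 to 2.75. None of 4 endothelial markers (summed level 175 to 231 FPKM in NC and 154 to 231 FPKM after running), 5 macrophage markers (49.1 to 86.3 and 33.8 to 74.2 FPKM) or the 2 lymphocyte markers passed either. The lowest adjusted p values in these 3 lists were those of Tek (log2 fold change -0.32, adjusted p 0.184), Cd163 (-1.09, 0.0982) and Ptprc (-0.09, 0.878). No marker with a row was at 0 in all libraries. The part of the cell makeup in the results on the 10 genes was not tested.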

How the data were processed

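Stranded polyA RNA libraries of 8 Achilles tendons (4 NC, 4 0 h p.r.) were compared. Per the submitters' processing notes and the study's methods, the authors aligned reads with HISAT2 2.1.0 to Rnor_6.0 and counted them with featureCounts 1.6.3. The deposited FPKM values, 1 column per library, were used as given. Their sums ran from 554130 to 900138 per library, yet each library's median ratio to the gene means was close to 1 (0.999 to 1.014), so a scaling between libraries had been applied. The table's fold change and p-value columns, the authors' own from DESeq2 1.30.1, were not used.

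Whole reads were recovered from the steps between FPKM values (whole within 0.01 for 99.99% of genes; tested on simulated data, where 99.7% of 3000 came back exactly). They numbered 10660131 to 17464752 per library, with a median of 218 per gene. No pair of libraries was a copy of another. The test took the 13863 genes that reached an FPKM of 0.5 in 4 or more libraries, leaving out 1727, and ran on log2(FPKM + 0.5), which understates changes of low genes, with limma 3.58.1 in R 4.3.3 (eBayes with trend), two-sided, without covariates. On simulated data with a fold of 4, this fit on 13910 genes called 87.4% of 198 changed genes, and 6.99% of its calls were unchanged genes. Shares were compared by an exact permutation test in Python 3.11.15. The 10 genes and all lists were chosen with earlier results of these data known. Named were the 10 genes, each list's members past both thresholds or else the one with the lowest adjusted p, and the 3 genes most like each of the 10; others are marked as named after their values were seen, and 1 gene that this rule names is not reported here. Alternatives were other pseudocounts (0.1 and 1), filters and scalings, a replicate block, limma array weights, robust eBayes, protein-coding genes only, a test against a fold of 1.5 and leaving out each library. A limma voom fit to the recovered reads was added after seeing the data. The genome of Rnor_6.0 was not used here, so positions are given for the promoter windows only.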

Additional observations from a re-analysis of the deposited data

Results flagged for a closer look

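The sets of 4 libraries checked numbered 22, both groups for the 10 genes and for the Dusp1 share of the DUSP sum. In 3 of them a library stood apart from the other 3, by a gap that exceeded Dixon's 95% limit for 4 samples. Chance gives such a gap in about 1 in 20 sets. Dusp5 in 0 h p.r. was highest in replicate 2, at 6.97 FPKM against 5.57 to 5.64 FPKM, with a gap of 0.944 of the range. Spry4 in 0 h p.r. was lowest in replicate 4, at 6.65 FPKM against 9.92 to 10.6 FPKM, with a gap of 0.833. Spred1 in NC was lowest in replicate 2, at 4.88 FPKM against 8.0 to 8.15 FPKM, with a gap of 0.953.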

How the results depend on the processing

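The direction of Dusp1, Dusp2, Dusp4, Dusp5, Dusp8, Spry2, Spry4 and Spred1 was the same in all 20 alternatives, and that of Dusp6 and Dusp10, both near 0, in 17. Dusp2 and Dusp5 kept an adjusted p under 0.05 in all of them, the test against a fold of 1.5 aside. With an equal FPKM sum per library, the log2 fold changes of Dusp1 (1.52) and Dusp8 (1.16) were little moved but no longer passed, leaving 2 of the 10 genes past either rule. Dusp14, Map2k3, Errfi1, Phlda1, Adipoq, Lep and Cidec also lost their calls there, and with the block Map2k3, Errfi1, Phlda1 and all 4 adipocyte markers did. With an equal FPKM sum the count over all genes was 171 past both thresholds, 133 higher and 38 lower against 250 and 124, and 178 by the adjusted p alone. The replicate numbers did not pair the samples (same-number correlations of -0.14, -0.07, 0.07 and 0.01). With the replicate number as a block, Dusp8 (1.17) had an adjusted p of 0.0765, and 212 genes passed both thresholds and 235 the adjusted p alone. Array weights raised the latter to 2069 and gave 288 higher and 217 lower past both thresholds, with 3 of the 10 genes, since Dusp8 fell below the fold threshold at 0.91. The block gave 177 higher and 35 lower. The test against a fold of 1.5 left 60 genes, with 1 of the 10. Leaving out 1 library gave 195 to 516 genes past both thresholds and 251 to 1178 by the adjusted p alone, with 2 to 4 of the 10 genes under either rule. The count of 374 was lowest without 0 h p.r. replicate 2 (195), 0 h p.r. replicate 3 (201) and NC replicate 1 (217). All 8 such fits together gave log2 fold changes of 1.37 to 1.78 for Dusp1 and 0.95 to 1.35 for Dusp8, and a difference in the Dusp1 share of 6.80 to 9.05 points. The added voom fit to recovered reads called 415 genes and 4 of the 10. Among 29 further genes, 488 of 580 values kept their side of the threshold, 87 lost it, 5 gained it and 0 of the called ones changed sign. The cause of these shifts was not tested. Depth limited Dusp2 and Dusp5 most, at 10 to 74 reads per control library.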

Other observations

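A pair of DUSP genes outside the 10, noticed after their values were seen, varied between post-run libraries in the order of the muscle markers. Dusp26 was at 32.9, 10.1, 22.4 and 7.65 FPKM in the post-run libraries, whose summed skeletal muscle markers were 40353, 6835, 18267 and 1218 FPKM. Dusp27, a catalytically inactive family member known from skeletal muscle, was at 12.7, 2.82, 4.22 and 0.440 FPKM in the same libraries. In NC, where the muscle markers summed to 5298, 9124, 8560 and 5658 FPKM, Dusp26 was at 8.23, 17.5, 11.9 and 6.18 FPKM and Dusp27 at 4.46, 1.86, 7.33 and 3.74 FPKM, so Dusp26 followed the muscle markers except in the lowest 2 libraries, while Dusp27 was lowest where they were highest. No test of this order was made, and neither gene passed the limma test between the groups (adjusted p of 0.521 for Dusp26 and 0.888 for Dusp27).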
